A study of Sus scrofa with 24 samples.

Results

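The miR-181 family was followed through the differentiation of porcine preadipocytes from 2 fat depots. Its members were taken by name from the deposited miRNA table, as every entry called ssc-miR-181a, b, c or d with any arm suffix, which gave 5 of 1587 entries. Of these, 3 (ssc-miR-181a, ssc-miR-181b and ssc-miR-181d-5p) averaged 1 TPM or more and were tested among 430 entries, while ssc-miR-181c and ssc-miR-181d-3p lay below that limit. The unit, called TPM, is reads scaled to a total of 1000000 reads on miRNAs per library.

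Preadipocytes came from Yorkshire piglets that were 6 days old. Those from the back subcutaneous fat (BF) and those from the longissimus dorsi muscle (intramuscular, IMF) were grown in culture and driven towards adipocytes with isobutylmethylxanthine, dexamethasone and insulin, then with insulin alone, then in growth medium. Cells collected on days 0, 2, 4 and 8 formed the groups BF-0d, BF-2d, BF-4d, BF-8d, IMF-0d, IMF-2d, IMF-4d and IMF-8d, with 3 libraries each. Day 0 cells had not been induced, and cells of all groups were primary cultures from 3 piglets, whose link to single libraries was not given.

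A microRNA guides an Argonaute protein to messenger RNAs, mainly through its seed, the bases 2 to 8 of the mature strand, and lowers the output of the messages it pairs with. Members of a family share the seed and so have overlapping sets of predicted targets. The miR-181 family is best known from lymphocyte development, where miR-181a sets the sensitivity of T cell receptor signalling, and miR-181a has also been studied as a regulator of fat cell differentiation.

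The mature sequences are shown because the members differ by few bases, which decides which reads can be told apart. Capitals mark the seed.
ssc-miR-181a: aACAUUCAacgcugucggugaguu
ssc-miR-181b: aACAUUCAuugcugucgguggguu
ssc-miR-181c: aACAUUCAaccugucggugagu
ssc-miR-181d-5p: aACAUUCAuuguugucgguggguu
ssc-miR-181d-3p: cCCACCGAgggaugaaugucac

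The 4 strands from the 5′ arm carry the seed ACAUUCA, and 0 of the other entries among the 958 with a sequence in the list that was read carried it. Counted from the 5′ end, ssc-miR-181b differs from ssc-miR-181a by the substitutions A9U, C10U and A21G. A single substitution, C12U, separates ssc-miR-181d-5p from ssc-miR-181b. The shorter ssc-miR-181c is 2 single-base edits away from ssc-miR-181a. The strand from the 3′ arm, ssc-miR-181d-3p, has another seed, CCACCGA.

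In Sscrofa11.1, RefSeq places 6 miR-181 precursors in 3 clusters. MIR181A-2 (chr1:265497249-265497328, plus strand) and MIR181B-2 (chr1:265499111-265499196, plus strand) lie 1782 bp apart inside the gene NR6A1, on the opposite strand and in no exon of it. MIR181B-1 (chr10:21696492-21696571, minus strand) and MIR181A-1 (chr10:21696653-21696756, minus strand) lie 81 bp apart inside the uncharacterised gene LOC110255652, on the same strand and in no exon. MIR181D (chr2:65279773-65279852, minus strand) and MIR181C (chr2:65279950-65280036, minus strand) lie 97 bp apart and in no annotated gene, the nearest being C2H19orf57 at 6735 bp from MIR181D. The mature sequences of ssc-miR-181a and ssc-miR-181b each occur 2 times in the genome, once on chromosome 1 and once on chromosome 10, so reads from both clusters cannot be told apart by the mature sequence. The sequences of ssc-miR-181c, ssc-miR-181d-5p and ssc-miR-181d-3p each occur once.

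Libraries held between 4954845 and 16863560 reads on miRNAs. The share of ssc-miR-21-5p alone lay between 27.9% and 60.5%, with group means of 57.2% in BF-0d, 35.5% in BF-8d, 57.4% in IMF-0d and 42.5% in IMF-8d, and TPM values of all other entries share what remains. Markers of other cells were summed over lists. The 7 skeletal muscle entries lay between 475 and 2362 TPM in BF and between 696 and 1739 TPM in IMF libraries. The 2 entries of the endothelial miR-126 lay between 26.4 and 90.9 TPM in BF and between 18.2 and 40.4 TPM in IMF, the 7 blood cell entries between 0.662 and 8.08 TPM, and the 4 epithelial entries at most at 1.90 TPM. No list held a miRNA that defines adipocytes, so the label of the cells was not checked in this way. Since these are bulk libraries, fewer cells with a miRNA and less of it per cell cannot be told apart.

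The family was of middling abundance and unequal in its members. ssc-miR-181a had a mean of 88.0 TPM over the 24 libraries and stood at rank 113 of all entries. ssc-miR-181b followed with 58.7 TPM at rank 128. ssc-miR-181d-5p reached 10.3 TPM, ssc-miR-181c 0.327 TPM and ssc-miR-181d-3p 0.0131 TPM. All 3 tested members had reads in every library, at least 275 of ssc-miR-181a, 230 of ssc-miR-181b and 34 of ssc-miR-181d-5p.

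In intramuscular adipocytes, ssc-miR-181a and ssc-miR-181b stayed low up to day 4 and rose between day 4 and day 8. ssc-miR-181a stood at 50.7, 30.1 and 54.7 TPM in the 3 IMF-0d libraries and at 41.5, 44.7 and 52.8 TPM in IMF-2d. It stood at 48.6, 37.9 and 59.4 TPM in IMF-4d and at 123, 108 and 94.99 TPM in IMF-8d. Every IMF-8d library was above all earlier ones, whose groups overlapped each other. For ssc-miR-181b the values were 32.5, 25.2 and 31.3 TPM in IMF-0d and 23.97, 27.3 and 36.5 TPM in IMF-2d. They were 29.6, 25.7 and 35.3 TPM in IMF-4d and 102, 70.3 and 69.5 TPM in IMF-8d. Again the 3 libraries of day 8 lay above all earlier ones.

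The mean TPM of ssc-miR-181a was 2.24 times as high in IMF-8d as in IMF-4d, with a log2 fold change by limma of 1.16 ± 0.20 (SE, adjusted p = 0.00811). For ssc-miR-181b the ratio of the mean TPM was 2.67, and the log2 fold change was 1.38 ± 0.20 (limma adjusted p = 0.00487). In IMF-4d vs IMF-8d, 13% of the tested entries were called, 12.3% as higher on day 8, and 38.4% did not overlap between the groups. The size of the change ranked 14th for ssc-miR-181b and 25th for ssc-miR-181a among the 430 entries. ssc-miR-181d-5p, with 7.19 ± 1.33 TPM in IMF-4d and 8.44 ± 1.94 TPM in IMF-8d (SD, n = 3), did not pass (0.20 ± 0.22, limma adjusted p = 0.556). Over the whole course, IMF-0d vs IMF-8d gave 1.29 ± 0.24 for ssc-miR-181a (limma adjusted p = 0.00842) and 1.40 ± 0.19 for ssc-miR-181b (limma adjusted p = 0.00270), where 30.5% of the tested entries were called, 19.8% as higher on day 8, and 48.8% did not overlap. When totals excluded ssc-miR-21-5p, ssc-miR-181b was still called in both comparisons (1.06 and 0.98), but ssc-miR-181a was not (0.84, adjusted p = 0.0525, and 0.87, adjusted p = 0.0722). Testing all 1587 entries without the filter also ended the calls of ssc-miR-181a (limma adjusted p = 0.0672 and 0.0655) and not those of ssc-miR-181b.

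The 2 early steps gave no call in intramuscular cells. In IMF-0d vs IMF-2d and in IMF-2d vs IMF-4d, limma called 0 of the 3 members and 0% of the tested entries, 0 members had an unadjusted p under 0.05, and edgeR and DESeq2 called 0. The 95% intervals of the log2 fold changes ran from -0.56 to 0.70 for ssc-miR-181a and from -0.52 to 0.46 for ssc-miR-181b in the first step, and from -0.43 to 0.54 and from -0.45 to 0.56 in the second. Some markers of other cells were also higher on day 8, and others were not. The summed level of the blood cell list was between 0.662 and 1.60 TPM in IMF-4d and between 6.68 and 8.08 TPM in IMF-8d. Most of that was ssc-miR-486, at 5.95 to 6.63 TPM in IMF-8d, while the leukocyte miRNA ssc-miR-142-3p was at 0.284 to 0.799 TPM in IMF-4d and 0.134 to 0.915 TPM in IMF-8d, and ssc-miR-223 had 0 reads in both groups. Of the 3 tested entries of the muscle list, 1 was called as higher in IMF-8d, ssc-miR-133a-3p, with means of 11.3 TPM in IMF-4d and 26.6 TPM in IMF-8d. In contrast, ssc-miR-499-5p had means of 13.8 TPM in IMF-4d and 12.1 TPM in IMF-8d. The summed muscle and epithelial lists overlapped between these groups. Of the 2 entries of miR-126, 0 were called. Their sum lay between 18.7 and 30.9 TPM in IMF-4d and between 24.6 and 34.8 TPM in IMF-8d. The part of these markers in the rise was not tested.

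In subcutaneous adipocytes the members started higher. ssc-miR-181b stood at 50.7, 42.0 and 43.9 TPM in BF-0d and at 55.1, 61.4 and 36.1 TPM in BF-2d. It stood at 72.1, 114 and 137 TPM in BF-4d and at 83.4, 89.8 and 115 TPM in BF-8d. All libraries of days 4 and 8 were above all of days 0 and 2. The change from BF-0d to BF-8d passed (ratio of the mean TPM 2.11, limma log2 fold change 1.05 ± 0.20 SE, limma adjusted p = 5.13e-04), in a comparison where 42.8% of the tested entries were called and 27.9% were called as higher on day 8, and where 53.7% did not overlap. For the step from BF-2d to BF-4d, with a log2 fold change of the same size (1.05 ± 0.30), the adjusted p of limma was 0.0664, and 0 of the 3 members were called where 6.05% of the tested entries were, while 2 of the 3, ssc-miR-181b and ssc-miR-181d-5p, did not overlap, as did not 34.9% of the entries. At an unadjusted p under 0.05 there was 1 member, ssc-miR-181b, which DESeq2 (adjusted p = 0.0171) and limma with the replicate block (adjusted p = 0.0419) called and edgeR did not. Without BF-4d replicate 1, limma called it as well (1.31, adjusted p = 0.0104). The summed levels of 3 of the 4 marker lists, all but the epithelial one, were also separate between BF-2d and BF-4d. The muscle list summed to between 475 and 544 TPM and between 1043 and 1526 TPM (1 of 3 tested entries called as higher), miR-126 to between 26.4 and 53.5 TPM and between 53.6 and 86.4 TPM, and the blood cell list to between 1.86 and 2.52 TPM and between 2.81 and 6.37 TPM. Their part in the change was not tested.

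ssc-miR-181a stood at 122, 85.9 and 83.4 TPM in BF-0d and at 97.8, 104 and 48.8 TPM in BF-2d. It stood at 96.5, 125 and 163 TPM in BF-4d and at 125.9 and 158 TPM in BF-8d replicates 1 and 2, with replicate 3 between them. Neighbouring days overlapped, but every library of BF-8d was above those of BF-0d. BF-0d vs BF-8d was called close to the threshold (ratio of the mean TPM 1.504, limma log2 fold change 0.60 ± 0.21 SE, limma adjusted p = 0.0280). It was lost under edgeR, DESeq2, a single fit of all libraries, no filter on low entries, a fit with the replicate number as a block (adjusted p = 0.0511) and median-of-ratios scaling, which sets the typical entry to no change (0.42, adjusted p = 0.0702), and when totals excluded ssc-miR-21-5p its log2 fold change was 0.01. That last setting also took the call from ssc-miR-181b (0.47, adjusted p = 0.135). Leaving out either of BF-0d replicates 2 and 3 or of BF-8d replicates 2 and 3 ended the call of ssc-miR-181a as well (adjusted p from 0.0805 to 0.134). The muscle list, whose sum is mostly ssc-miR-1, summed to between 819 and 1013 TPM in BF-0d and between 1324 and 2362 TPM in BF-8d. Of its 3 tested entries 2 were called as higher and 1 as lower, ssc-miR-499-5p, which had means of 20.1 TPM in BF-0d and 11.9 TPM in BF-8d. The blood cell list summed to between 1.19 and 1.99 TPM in BF-0d and between 3.71 and 4.44 TPM in BF-8d. Of the 2 entries of miR-126, 1 was called as higher in BF-8d, and they summed to between 38.1 and 71.2 TPM in BF-0d and between 51.2 and 90.9 TPM in BF-8d. The part of these lists in the changes was not tested.

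ssc-miR-181d-5p stood at 17.9, 11.5 and 12.6 TPM in BF-0d and at 10.8, 9.32 and 6.59 TPM in BF-2d. It stood at 11.13, 13.3 and 13.8 TPM in BF-4d and at 13.7, 18.2 and 20.6 TPM in BF-8d. The libraries of day 2 were below those of days 0, 4 and 8 without overlap, which between BF-0d and BF-2d held for 29.8% of the tested entries in either direction. None of its changes between days in BF passed, including BF-0d vs BF-2d (-0.60 ± 0.24, limma adjusted p = 0.191, unadjusted p = 0.0457). In BF-0d vs BF-2d limma called 0 of the 3 members and 4.19% of the tested entries, with 1 member at an unadjusted p under 0.05, and in BF-4d vs BF-8d 0 of the 3 and 3.02%, with 0 members at that p. edgeR and DESeq2 called 0 members in both. The muscle list had its lowest sums on day 2 as well, between 475 and 544 TPM against at least 819 TPM in BF-0d and 1043 TPM in BF-4d. These sums are mostly ssc-miR-1, with means of 901, 484 and 1203 TPM on days 0, 2 and 4. Its other 2 tested entries had no such low: ssc-miR-133a-3p had means of 7.68, 9.78 and 21.3 TPM and ssc-miR-499-5p of 20.1, 16.4 and 12.5 TPM. Of the 3 tested entries, 1 was called as lower in BF-2d than in BF-0d. The part of the muscle list was not tested.

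**Figure D1:**
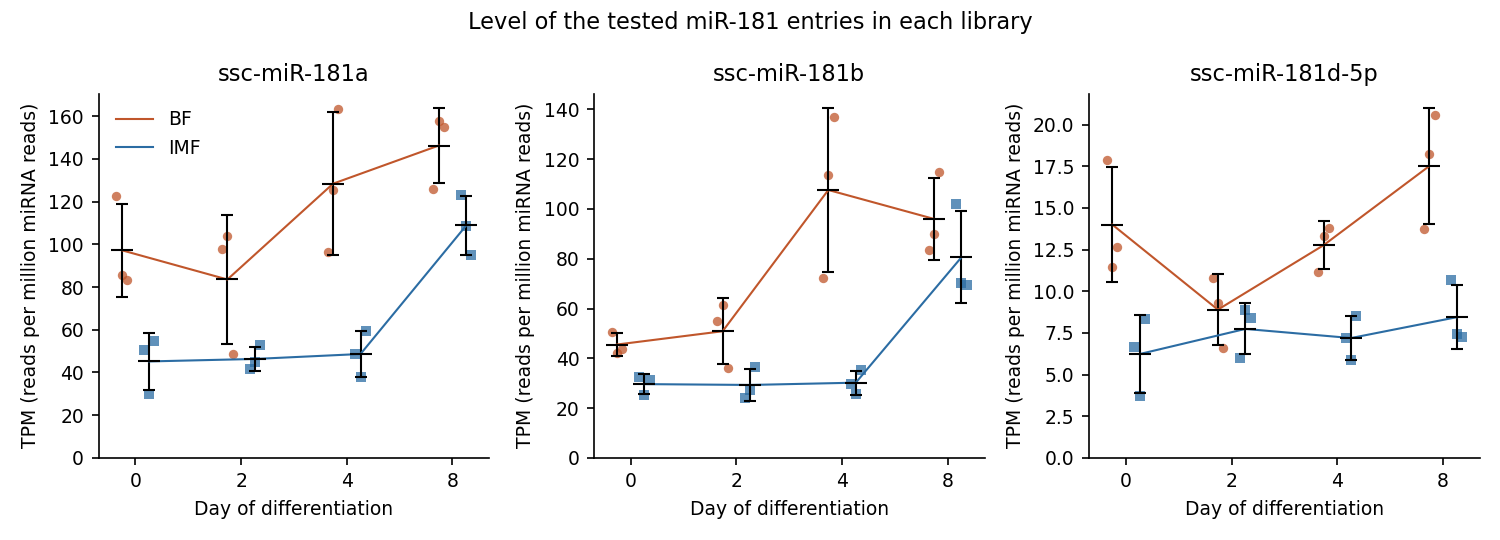
TPM of ssc-miR-181a, ssc-miR-181b and ssc-miR-181d-5p (vertical axes, from 0) by day of differentiation in BF (circles) and IMF (squares), 1 point per library, with the mean and SD of the 3 libraries as black bars and lines joining the means. The IMF libraries of ssc-miR-181a and ssc-miR-181b lie between 23.97 and 59.4 TPM up to day 4 and between 69.5 and 123 TPM on day 8.

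The sources were then compared on each day. On day 0, before induction, all 3 tested members were lower in IMF than in BF, with no overlap of libraries, where 29.3% of the tested entries were called, 15.8% as lower in IMF, and 47.7% did not overlap. In IMF-0d the mean of ssc-miR-181a was 45.1 ± 13.2 TPM against 97.2 ± 21.8 TPM in BF-0d (SD, n = 3; log2 fold change -1.11 ± 0.28 SE, limma adjusted p = 0.0312). ssc-miR-181b had 29.6 ± 3.91 TPM against 45.5 ± 4.60 TPM (-0.61 ± 0.15, limma adjusted p = 0.0266). ssc-miR-181d-5p had 6.23 ± 2.32 TPM against 14.0 ± 3.43 TPM (-1.09 ± 0.31, limma adjusted p = 0.0471).

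These day 0 calls depended on single libraries and on the scaling. Median-of-ratios scaling left 1 of the 3 called, ssc-miR-181a, and a total without ssc-miR-21-5p left 0. In the latter the log2 fold changes were about the same (-1.11 for ssc-miR-181a, -0.61 for ssc-miR-181b and -1.15 for ssc-miR-181d-5p), with larger SE and adjusted p from 0.0669 to 0.0901. Without the filter 0 were called as well (limma adjusted p from 0.0778 to 0.166). The call of ssc-miR-181b was lost under edgeR (-0.37, adjusted p = 0.125) and DESeq2 (-0.42, adjusted p = 0.0749), and that of ssc-miR-181d-5p with a pseudocount of 0.1 (limma adjusted p = 0.0520). Leaving out BF-0d replicate 1 or BF-0d replicate 3 left 0 called, BF-0d replicate 2, IMF-0d replicate 1 or IMF-0d replicate 2 left 1, and IMF-0d replicate 3 left 2. The direction was the same in every fit.

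On day 2 limma called 0 of the 3 members, where 12.3% of the tested entries were called, and all 3 overlapped, where 33.3% of the entries did not. ssc-miR-181a stood at 46.3 ± 5.82 TPM in IMF-2d against 83.5 ± 30.2 TPM in BF-2d (-0.77 ± 0.30, limma adjusted p = 0.158) and ssc-miR-181b at 29.3 ± 6.51 TPM against 50.9 ± 13.2 TPM (-0.76 ± 0.25, limma adjusted p = 0.109). Both had an unadjusted p under 0.05, edgeR called 1 of them and DESeq2 called both. BF-2d replicate 3 held the lowest value of its group for all 3 members, and without it both were called by limma (-1.11, adjusted p = 0.00868, and -0.99, adjusted p = 0.0262).

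On day 4 all 3 members were lower in IMF without overlap of libraries, where 36.3% of the tested entries were called, 28.8% as lower in IMF, and 50.2% did not overlap. ssc-miR-181b was at 30.2 ± 4.81 TPM in IMF-4d against 108 ± 32.9 TPM in BF-4d (-1.76 ± 0.27, limma adjusted p = 4.60e-04). ssc-miR-181a was at 48.6 ± 10.8 TPM against 128 ± 33.5 TPM (-1.37 ± 0.27, limma adjusted p = 0.00179). ssc-miR-181d-5p was at 7.19 ± 1.33 TPM against 12.8 ± 1.44 TPM (-0.76 ± 0.23, limma adjusted p = 0.0195). The median of all 430 entries was itself -0.34 in this comparison, and about 0 (-0.001) after median-of-ratios scaling. After that scaling ssc-miR-181b (-1.34) and ssc-miR-181a (-0.95) were still called, but ssc-miR-181d-5p was not (-0.37, adjusted p = 0.215). Its call was also lost under edgeR (-0.38, adjusted p = 0.245) and DESeq2 (-0.41, adjusted p = 0.334), and without BF-4d replicate 2, BF-4d replicate 3, IMF-4d replicate 1 or IMF-4d replicate 2 (adjusted p from 0.0515 to 0.0816). Without the filter on low entries ssc-miR-181a (limma adjusted p = 0.0668) and ssc-miR-181d-5p (0.0768) lost their calls and ssc-miR-181b kept it (0.0432).

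On day 8 the members differed in their calls. ssc-miR-181d-5p was the only member called, at 8.44 ± 1.94 TPM in IMF-8d against 17.5 ± 3.49 TPM in BF-8d (-0.97 ± 0.23, limma adjusted p = 0.00369), where 37.2% of the tested entries were called, 25.1% as lower in IMF. It was still called after median-of-ratios scaling (-0.67), but not without the filter (limma adjusted p = 0.0569). ssc-miR-181a was at 109 ± 14.0 TPM against 146 ± 17.7 TPM (-0.42 ± 0.17, limma adjusted p = 0.0622), and its libraries did not overlap, as for 51.2% of the entries. ssc-miR-181b was at 80.6 ± 18.5 TPM against 96.0 ± 16.6 TPM with overlapping libraries (-0.26 ± 0.20, limma adjusted p = 0.311, 95% interval from -0.69 to 0.17), and its sign turned under median-of-ratios scaling (0.06). In this comparison the median of all entries was -0.28, and -0.03 after that scaling.

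Markers of other cells also differed between the sources. For the endothelial miR-126, 0 of the 2 tested entries were called on days 0 and 2, 1 was called as lower in IMF on day 4 and 2 on day 8. Its 2 entries summed to between 38.1 and 71.2 TPM in BF-0d and between 18.2 and 40.4 TPM in IMF-0d, which overlap, to between 53.6 and 86.4 TPM in BF-4d and between 18.7 and 30.9 TPM in IMF-4d, and to between 51.2 and 90.9 TPM in BF-8d and between 24.6 and 34.8 TPM in IMF-8d. Of the 3 tested muscle entries, 1 was called as higher and 1 as lower in IMF on day 0, 1 as higher on day 2 and 0 on days 4 and 8. The single tested blood cell entry, ssc-miR-486, was called as lower in IMF on day 4, with means of 0.323 TPM against 1.51 TPM in BF, and as higher on day 8, with 6.27 TPM against 2.43 TPM. The part of these markers in the differences of the family was not tested. The source and the digestion of its tissue cannot be told apart.

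**Figure D2:**
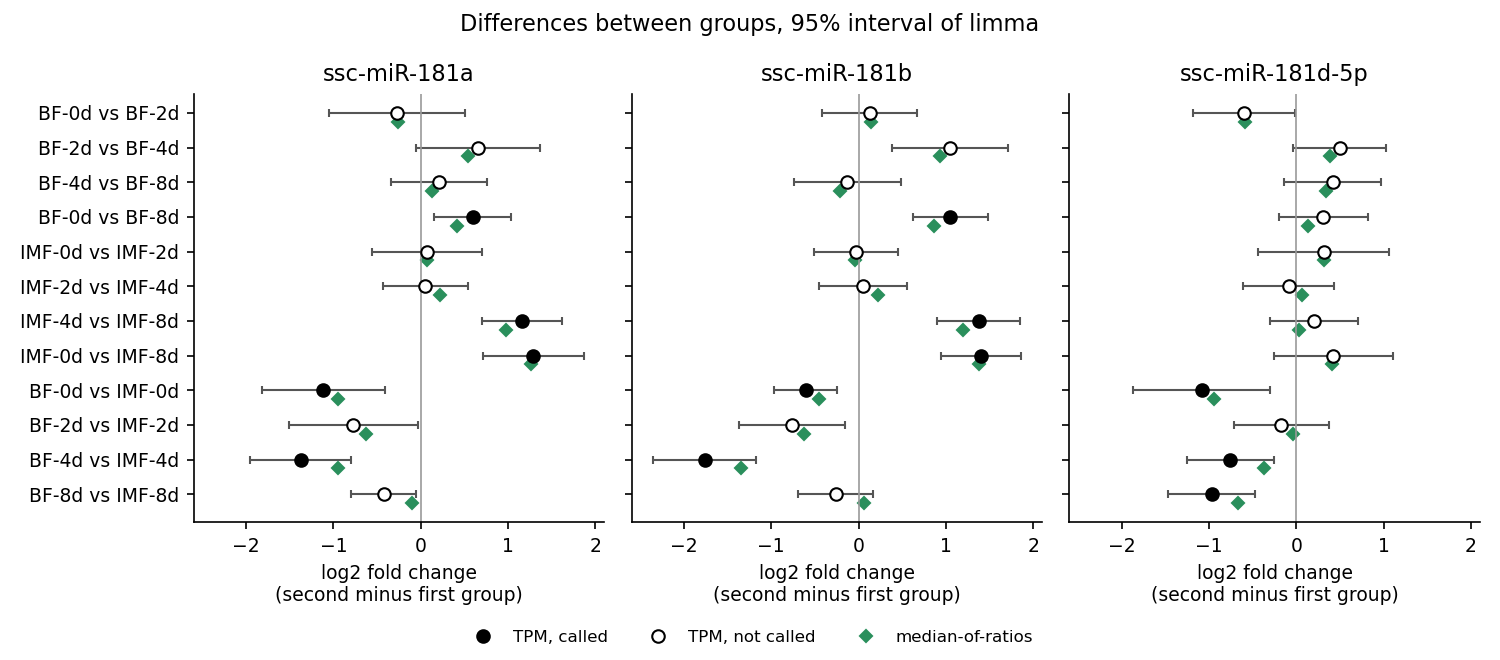
Log2 fold change (horizontal axis, second minus first group) of the 3 tested members in the 12 comparisons, with the 95% interval of limma on log2(TPM + 1). Filled circles were called (FDR under 0.05 and fold change above 1.5), open circles were not, and diamonds give the value after median-of-ratios scaling. The lowest value is that of ssc-miR-181b in BF-4d vs IMF-4d, -1.76 (-1.34 after that scaling).

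Whether the time course itself differed between the sources was tested by an interaction of source and day fitted to all 24 libraries. ssc-miR-181b passed (limma F test, adjusted p = 0.00627), where 31.6% of the tested entries did, while ssc-miR-181a (adjusted p = 0.178) and ssc-miR-181d-5p (adjusted p = 0.139) did not. Among the single steps of ssc-miR-181b, only that from day 4 to day 8 passed. In this step ssc-miR-181b changed by -0.13 in BF and by 1.38 in IMF on the log2 scale. The difference was 1.503 ± 0.33 SE (limma adjusted p = 0.00314), where 12.3% of the tested entries passed. The step from day 2 to day 4, with 1.05 in BF and 0.05 in IMF, differed in the other direction without passing (-0.999 ± 0.33, limma adjusted p = 0.0605, where 7.67% of the tested entries passed). From day 0 to day 8 as a whole the difference was 0.35 ± 0.33 (limma adjusted p = 0.463, where 20.7% passed). For ssc-miR-181a the difference in the step from day 4 to day 8 was 0.95 ± 0.37 (limma adjusted p = 0.104).

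Ratios between members of one library do not depend on how libraries were scaled, so they show whether the members moved together. There was 0.644 of ssc-miR-181b for each ssc-miR-181a in the median library, with a range from 0.414 to 0.907. In BF the ratio was 0.476 ± 0.0568 in BF-0d, 0.631 ± 0.0948 in BF-2d, 0.831 ± 0.0801 in BF-4d and 0.657 ± 0.0861 in BF-8d (SD, n = 3). Each of these days was separate from the next without overlap. The ratio differed between days in BF (exact permutation test of the between-day sum of squares, p = 0.00448, adjusted over the 6 ratio tests 0.0134). Without BF-0d replicate 1 or BF-4d replicate 2 the exact permutation test no longer passed after adjustment (adjusted p = 0.0604 and 0.0510).

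In IMF the ratio of ssc-miR-181b to ssc-miR-181a was 0.683 ± 0.138, 0.627 ± 0.0589, 0.627 ± 0.0455 and 0.736 ± 0.0908 on days 0, 2, 4 and 8 (SD, n = 3), with all days overlapping and no difference that passed (exact permutation test, p = 0.436, adjusted 0.523). Averaged over days, the log2 ratio was 0.07 higher in IMF than in BF (exact permutation test within days, two-sided, p = 0.526, adjusted 0.526). Single days pointed in opposite directions, with IMF higher on day 0 by 0.51 and lower on day 4 by a difference of -0.40 on the log2 scale, both without overlap, which in 3 against 3 libraries gives the smallest exact permutation p of 0.1.

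The ratio of ssc-miR-181d-5p to ssc-miR-181a changed between days in IMF. It was 0.136 ± 0.0145 in IMF-0d, 0.167 ± 0.0276 in IMF-2d, 0.149 ± 0.00561 in IMF-4d and 0.0771 ± 0.00924 in IMF-8d (SD, n = 3), and the 3 libraries of IMF-8d were below all other IMF libraries. The days of IMF differed (exact permutation test, p = 0.00286, adjusted 0.0134). In BF the ratio was 0.144 ± 0.00916, 0.112 ± 0.0227, 0.102 ± 0.0158 and 0.119 ± 0.0124 on days 0, 2, 4 and 8 (SD, n = 3), without a difference that passed (exact permutation test, p = 0.0965, adjusted 0.193). The mean difference of the sources over days was 0.11 on the log2 scale (exact permutation test within days, p = 0.436, adjusted 0.523), with IMF higher on days 2 and 4 and lower on day 8. As a share of all miR-181 reads of a library, ssc-miR-181d-5p made up 8.35% ± 0.113 in IMF-4d and 4.23% ± 0.281 in IMF-8d (SD, n = 3).

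**Figure D3:**
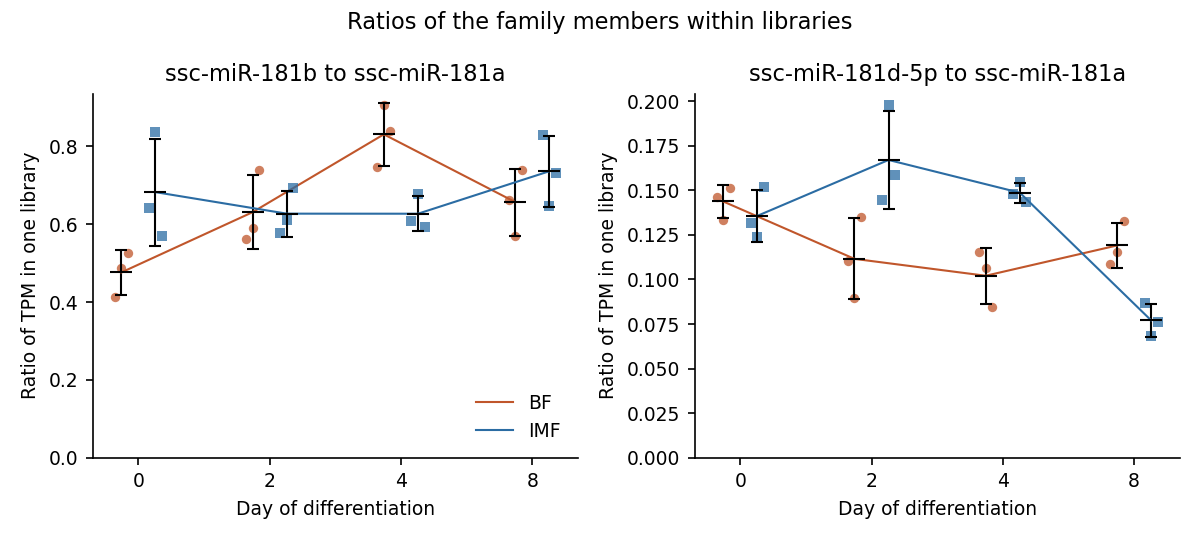
Ratio of the TPM of ssc-miR-181b (left) and ssc-miR-181d-5p (right) to that of ssc-miR-181a in the same library, by day, for BF (circles) and IMF (squares), with the mean and SD of the 3 libraries as black bars. The BF ratio of ssc-miR-181b goes from 0.476 on day 0 to 0.831 on day 4, and the IMF ratio of ssc-miR-181d-5p from 0.149 on day 4 to 0.0771 on day 8.

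Groups ordered by mean level gave a different order for each member. For ssc-miR-181a it was BF-8d, BF-4d, IMF-8d, BF-0d, BF-2d, IMF-4d, IMF-2d and IMF-0d, and each group overlapped the next. For ssc-miR-181b it was BF-4d, BF-8d, IMF-8d, BF-2d, BF-0d, IMF-4d, IMF-0d and IMF-2d, with gaps without overlap between IMF-8d and BF-2d and between BF-0d and IMF-4d. For ssc-miR-181d-5p it was BF-8d, BF-0d, BF-4d, BF-2d, IMF-8d, IMF-2d, IMF-4d and IMF-0d, so that all BF means were above all IMF means, and only BF-4d and BF-2d did not overlap. Over the 24 libraries, which share the scaling and the groups, Pearson's r of log2(TPM + 1) was 0.939 between ssc-miR-181a and ssc-miR-181b, 0.856 between ssc-miR-181a and ssc-miR-181d-5p and 0.723 between ssc-miR-181b and ssc-miR-181d-5p.

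Both members of the chromosome 2 cluster other than ssc-miR-181d-5p were near the limit of detection. ssc-miR-181c had 88 reads in all, in 18 of the 24 libraries, and 3 or more in 12. In BF-0d it had 6, 11 and 6 reads and in IMF-8d 2, 15 and 2 reads. Pooled over a source, this was 0.381 TPM in BF (exact Poisson 95% interval 0.281 to 0.505, counting error only) and 0.291 TPM in IMF (0.208 to 0.397), and the intervals overlap. ssc-miR-181d-3p, the opposite arm to ssc-miR-181d-5p, had 1 read in BF-8d replicate 2, 2 reads in IMF-8d replicate 1 and none elsewhere, against 2636 reads of ssc-miR-181d-5p. A count of 0 allows up to 3 reads, which is 0.178 to 0.605 TPM depending on the library.

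One more entry overlapped a miR-181 precursor. novel_miR_738, predicted by the authors, lies on the strand opposite to MIR181A-2 and reads as the reverse complement of its bases 46 to 67 of 80. It is shown because its sequence resembles a family member although it comes from the other strand.
novel_miR_738: uacagucaacggucggugguuu
It is 6 single-base edits away from ssc-miR-181a and carries another seed, ACAGUCA. It had 37 reads in 16 libraries, with 3, 9 and 3 reads in BF-0d, and 3 or more reads in 5 libraries.

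**Figure D4:**
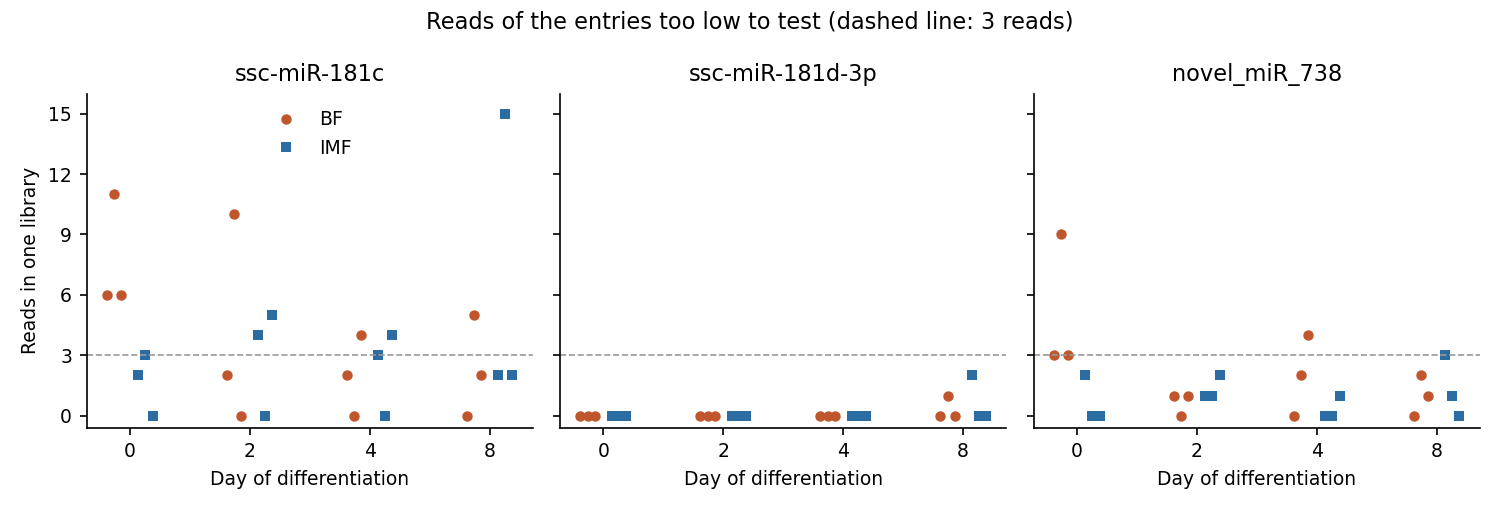
Reads per library (vertical axis) of ssc-miR-181c, ssc-miR-181d-3p and novel_miR_738 by day in BF (circles) and IMF (squares), with a dashed line at 3 reads. The highest value is 15 reads of ssc-miR-181c, in IMF-8d replicate 2.

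The tested entries outside the family whose profile over the 24 libraries was most like that of ssc-miR-181a, by Pearson's r of log2(TPM + 1), were ssc-miR-199a-3p and ssc-miR-199b-3p (r = 0.907 for both, 2 entries with nearly equal values), ssc-miR-424-5p (0.895), ssc-miR-340 (0.894) and ssc-miR-505 (0.892). For ssc-miR-181b they were ssc-miR-30b-5p (0.944), ssc-miR-212 (0.933), novel_miR_298 (0.906), ssc-miR-30c-5p (0.895) and ssc-miR-1343 (0.895). The 2 lists shared no entry. ssc-miR-30b-5p had means of 46.7, 121, 437 and 366 TPM in BF and of 27.3, 31.1, 41.9 and 191 TPM in IMF on days 0, 2, 4 and 8, with the BF maximum on day 4 and the IMF maximum on day 8 as for ssc-miR-181b. These values are descriptions over libraries that share groups and scaling.

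Lists of miRNAs described in adipogenesis give the setting of these changes. Of the 12 tested entries reported to promote it, 7 rose and 1 fell in BF-0d vs BF-8d, where 42.8% of all tested entries were called and 27.9% rose, with a median log2 fold change of 0.73 against 0.15 over all tested entries. In IMF-4d vs IMF-8d, 4 rose and 0 fell, where 12.3% of all rose (median 0.48 against 0.18). In BF-4d vs IMF-4d, 6 were lower in IMF and 0 higher, where 28.8% of all were lower (median -0.63 against -0.34). Of the 11 tested entries reported to restrain it, 5 rose and 5 fell in BF-0d vs BF-8d (median 0.02). In IMF-4d vs IMF-8d 1 rose and 0 fell (median 0.41), and in BF-4d vs IMF-4d 5 were lower in IMF and 0 higher (median -0.62), medians close to those of the promoting list. In BF-2d vs BF-4d, 4 of the restraining entries rose (median 0.32) and 2 of the promoting ones (median 0.19), 0 of either fell, and 6.05% of all tested entries were called. In IMF-0d vs IMF-8d, 6 promoting entries rose and 0 fell (median 0.55), and 1 restraining entry rose and 1 fell (median 0.05). Of all tested entries 30.5% were called there and 19.8% rose (median 0.07). In the other comparisons of days at most 3 entries of a list were called, where at most 4.19% of all tested entries were. Between the sources on day 0, 4 promoting and 3 restraining entries were lower in IMF, and 1 promoting entry was higher. On that day 29.3% of all tested entries were called, 15.8% as lower in IMF. The medians were -0.31 for the promoting and -0.45 for the restraining list, against -0.13 over all. On day 8, 4 promoting and 5 restraining entries were lower in IMF and 2 restraining ones higher. Of all tested entries 37.2% were called there, 25.1% as lower in IMF (medians -0.29 and -0.49 against -0.28 over all). On day 2, 2 promoting and 1 restraining entry were lower, where 12.3% of all tested entries were called (medians -0.32 and -0.09 against -0.14).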

How the data were processed

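Small RNA was measured in 24 libraries, in 8 groups of 3. The authors mapped clean reads to Sscrofa11.1 with Bowtie without mismatches, took known miRNAs from BLAST hits in miRBase and new ones from miRDeep2 and compared groups with DESeq2. The deposited values, in RPM and called TPM by the authors, sum to 1000000 per library. They are multiples of what 1 read is worth: 100% of 38088 values lay within 0.001 of a whole read, and reads were recovered for the count tests. How reads matching 2 loci were counted, and any removal of PCR copies, is not given in the sources used here.

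Entries averaging 1 TPM or more were tested on log2(TPM + 1) with limma 3.58.1 (eBayes with trend, R 4.3.3) over the libraries of the 2 groups compared, in 12 comparisons, with Benjamini-Hochberg adjustment over 430 entries. A call needed FDR under 0.05 and fold change above 1.5. On this scale the change of low entries is understated. Log2 fold changes subtract the earlier day from the later, and BF from IMF. The interaction was a moderated F test over all libraries. Ratios were tested by exact permutation in Python 3.11.15 (NumPy 2.4.6, pandas 2.3.3), figures drawn with Matplotlib 3.10.9. Alternatives included edgeR 4.0.16 and DESeq2 1.42.0 on the recovered reads. On simulated reads for BF-0d vs BF-2d with 200 of 430 entries changed, limma recovered 70.5% of 2-fold and 97% of 4-fold changes. For the interaction it recovered 54% and 89.5%. The data of BF-0d vs BF-2d gave 18 calls, and adjustment is stricter where fewer entries change. The simulated shares therefore do not give the power in the data.

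The members, lists and tests were chosen with earlier results of these data known. Named are all miR-181 entries, entries sharing their seed or overlapping their precursors, the 5 entries most correlated with ssc-miR-181a and with ssc-miR-181b, and ssc-miR-21-5p. Single markers were named after their values were seen. Mature sequences came from the study's miRNA list, equal to those of RefSeq for the 5 members, and positions from RefSeq. The libraries of a group are not linked to single piglets, so p-values measure only the spread between libraries, which may be technical. Equal replicate numbers gave no evidence of pairing, although weak correlations cannot exclude it. Deviations from group means correlated above 0.1 in 11 of 36 pairs, and in all 3 pairs of 1 comparison only. That was BF-0d vs IMF-0d, where the replicate block left 3 calls, as without it. Replicates differed beyond counting error.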

Additional observations from a re-analysis of the deposited data

Results flagged for a closer look

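The time course of ssc-miR-181b differed between subcutaneous and intramuscular adipocytes, by the test of the difference itself. The source-by-day interaction had an adjusted p of 0.00627 (limma F test, passed by 1 of the 3 tested members and by 31.6% of all tested entries), and the adjusted p stayed between 1.73e-04 and 0.0263 over the alternatives and left-out libraries. The change from day 4 to day 8, -0.13 in BF and 1.38 in IMF on the log2 scale, differed by 1.503 ± 0.33 SE (limma adjusted p = 0.00314), in a contrast that 12.3% of all tested entries passed. A share of 1 in 3 is close to that over all entries, so the F test does not set the family apart.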

How the results depend on the processing

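Of the 3 tested members, BF-0d vs BF-8d called 2, but 1 under edgeR, DESeq2, median-of-ratios scaling, no filter, one fit of all libraries and the replicate block, 0 when totals excluded ssc-miR-21-5p, and 1 to 2 with single libraries left out. BF-0d vs IMF-0d called 3, but 2 under edgeR, DESeq2 and pseudocount 0.1, 1 under median-of-ratios scaling, 0 without a filter, 0 without ssc-miR-21-5p and 0 to 2 with single libraries left out. BF-2d vs BF-4d called 0, but 1 with a mean of at least 10 TPM, the replicate block, DESeq2 and one fit, and 0 to 1 with libraries left out. Here the main fit called 26 of all 430 entries, the replicate block 42, DESeq2 54 and one fit 104. With a mean of at least 10 TPM it was 22 of 224. BF-2d vs IMF-2d called 0, but 1 with a mean of at least 10 TPM and edgeR, 2 with DESeq2 and one fit, and 0 to 2 with libraries left out. Of all 430 entries, the main fit called 53, edgeR 68, DESeq2 65 and one fit 69. A mean of at least 10 TPM gave 51 of 224. BF-4d vs IMF-4d called 3, but 2 under edgeR, DESeq2 and median-of-ratios scaling, 1 without a filter and 2 to 3 with libraries left out. Among all 430 entries the main fit called 156, edgeR 116, DESeq2 127 and median-of-ratios scaling 120. Without a filter 50 of 1587 were called. BF-8d vs IMF-8d called 1, but 0 without a filter. IMF-4d vs IMF-8d and IMF-0d vs IMF-8d each called 2, but 1 without a filter and 1 without ssc-miR-21-5p. For IMF-4d vs IMF-8d all calls were 56 of 430, 28 of 1587 without a filter and 38 of 430 without ssc-miR-21-5p. For IMF-0d vs IMF-8d they were 131 of 430, 70 of 1587 and 127 of 430. The drop without a filter goes with adjustment over 1587 entries. The cause of the other changes was not tested.

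Uncalled log2 fold changes turned sign as follows. Without ssc-miR-21-5p, ssc-miR-181a had -0.20 in BF-4d vs BF-8d and -0.065 in IMF-0d vs IMF-2d (-0.023 under edgeR), and ssc-miR-181d-5p -0.25 in BF-0d vs BF-8d and -0.10 in IMF-4d vs IMF-8d (-0.0011 under DESeq2). ssc-miR-181d-5p in IMF-2d vs IMF-4d had 0.059 under median-of-ratios scaling, 0.030 under edgeR and 0.0092 under DESeq2, and ssc-miR-181b in BF-8d vs IMF-8d 0.061, 0.084 and 0.025. With libraries left out, ssc-miR-181a ranged from -0.46 to 0.074 in BF-0d vs BF-2d, -0.19 to 0.23 in IMF-0d vs IMF-2d and -0.10 to 0.22 in IMF-2d vs IMF-4d. ssc-miR-181b ranged from -0.023 to 0.35, -0.19 to 0.10 and -0.075 to 0.22 there, and from -0.39 to 0.069 in BF-4d vs BF-8d, and ssc-miR-181d-5p from -0.24 to 0.031 in IMF-2d vs IMF-4d. For the log2 ratio of ssc-miR-181b to ssc-miR-181a, days in BF, the exact permutation p ranged from 0.00149 to 0.0201 with libraries left out.

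Equal replicate numbers were no evidence of pairing: in 11 of 36 pairs the correlation was highest with the same number, and the replicate block changed no call beyond those given. At 0 to 15 reads per library, ssc-miR-181c could not be compared between days.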
